A study of Mus musculus with 47 samples.

Results

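The immunoglobulin-type adhesion molecules described here were 9 genes taken by symbol: Mcam, Ncam1, Vcam1, Icam1, Alcam, L1cam, Cdon, Boc and Neo1. All 9 were found among the 45650 gene symbols of the deposited tables, and the estimated counts of their transcripts were summed per gene. They were followed across 47 RNA-seq libraries in 16 groups of C2C12 cells, a mouse skeletal myoblast line that fuses into myotubes after serum is withdrawn. C2C12 iMyoD1 cells carried the endogenous MyoD1 gene and a doxycycline (dox) inducible Halo-MyoD1 transgene, and were sampled with and without dox at 0 h (24 h of dox in growth medium), 24 h, 48 h and 120 h of differentiation, the last as whole cultures and as filtered myoblast-enriched and myotube-enriched fractions. C2C12 iCdh23 and C2C12 iMcam cells carried a dox-inducible Cdh23 or Mcam transgene and were sampled with and without dox at 48 h. Each group held 3 libraries labelled as biological replicates, except the myoblast-enriched fraction with dox, which held 2, and p-values measure the spread between these samples. The transgenes were driven by a dox-responsive promoter in stably transfected cells.

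These proteins share extracellular immunoglobulin domains and hold cells to one another or to the matrix. Mcam (CD146), Ncam1, Vcam1, Icam1, Alcam (CD166) and L1cam bind copies of themselves, other immunoglobulin-type proteins, laminins or integrins. Cdon and Boc are coreceptors of hedgehog ligands that signal from cell contacts in myoblasts, and Neo1 (neogenin) is a receptor for netrins and repulsive guidance molecules.

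Library totals ranged from 15066362 to 50950707 estimated counts, with a median of 22837955. Levels are CPM, a gene's share of its library's counts, scaled by TMM factors, differences are log2 fold changes with their standard error, and a gene was called at an adjusted p under 0.05 in edgeR's quasi-likelihood test. The induced genes gave an uneven check of the labels. Myod1 did not pass the test at 0 h with dox in iMyoD1 cells (log2 fold change 0.09 ± 0.06, adjusted p = 0.201). It was lower with dox at 24 h (-0.23), 48 h (-0.36) and 120 h in whole cultures (-1.62), each past the threshold and with no overlap. No rise of Myod1 with dox was thus measured in these whole cultures, and "with dox" and "without dox" name libraries as labelled throughout. Whether transgene RNA was counted under any of these symbols is not given in the sources used here. Cdh23 stood at 368, 343 and 444 CPM in the iCdh23 libraries labelled as without dox and at 566, 416 and 464 CPM in those with dox, which did not pass the test (log2 fold change 0.32 ± 0.15, adjusted p = 0.102). The summed level of 5 myogenic markers was 362 to 3392 CPM in every library, and that of 8 myotube markers was at most 12.8 CPM at 0 h and 24 h and at least 32.9 CPM later. Of the markers of other cell types, 5 for pericytes summed to 69.3 to 811 CPM, mainly from Pdgfrb (up to 737 CPM). Those of other types were lower, with 4 for leukocytes summing to at most 19.9 CPM, 5 for endothelium to at most 12.5 CPM, 3 for Schwann cells to at most 5.99 CPM and 3 for adipocytes to at most 0.254 CPM. The 6 whole-culture libraries of 120 h stood apart in the number of genes detected, 16372 to 17003 against 17908 to 20244 in the other 41. In bulk RNA, fewer cells of a type and less RNA per cell cannot be told apart. The 0 h and 24 h libraries lie in another deposited table than all later ones, so the step from 24 h to 48 h and the change of table cannot be told apart.

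**Figure D1:**
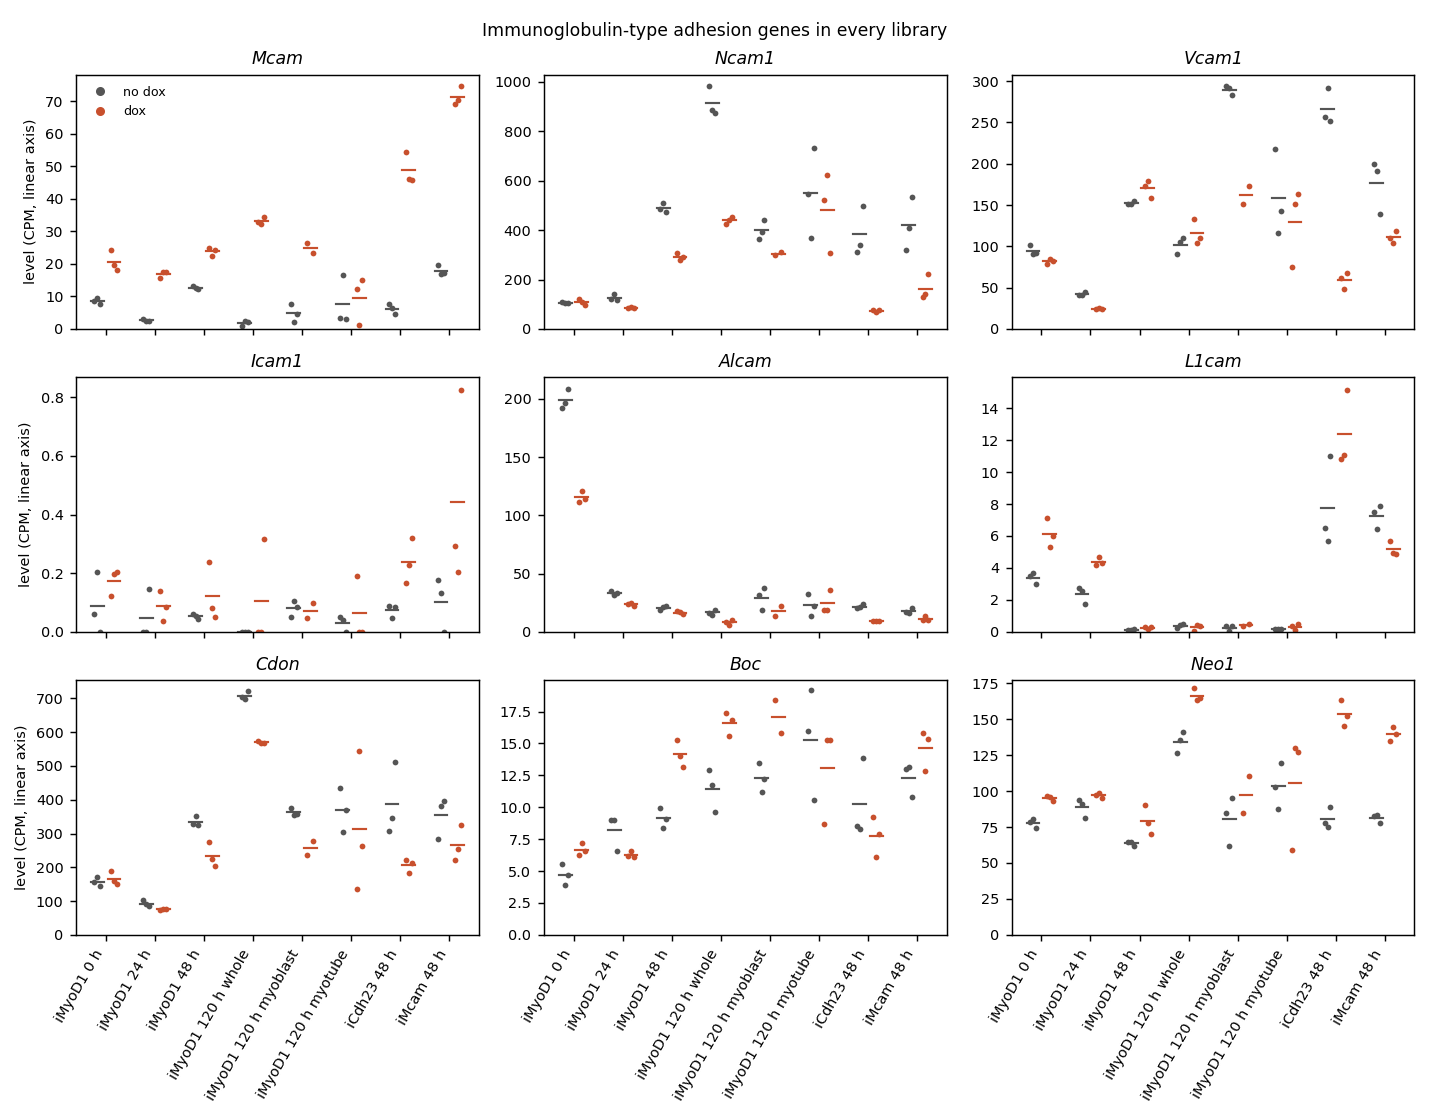
Level of each of the 9 genes in CPM on linear axes that start at 0, in every library (points) with the group mean (line), for the 8 settings with dox (orange) and without dox (grey). Mcam was higher with dox in every setting except the 120 h myotube-enriched fraction, where the libraries overlapped, and Icam1 stayed under 1 CPM throughout.

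Levels of different members were compared only per unit of transcript length. In iMyoD1 cells at 48 h without dox the mean level in TPM, which scales counts by transcript length and library total, was 211 for Ncam1, 75.8 for Cdon, 72.3 for Vcam1, 13.99 for Neo1, 7.05 for Mcam and 6.45 for Alcam. At 0 h without dox Alcam was the highest of the 8 members that could be scaled, at 107 TPM. Boc could not be scaled, because 95.2% of its counts lay on a transcript that is not in the annotation used here. Across the 16 groups the highest mean level was 91.4 times the lowest for L1cam, whose lowest group held 8 counts in all, 38.6 times for Mcam, with the induced iMcam transgene line at the top, and 24.4 times for Alcam. It was 12.4 times for Ncam1, 11.8 times for Vcam1, 9.43 times for Cdon, 3.64 times for Boc and 2.62 times for Neo1.

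Mcam, a laminin and galectin binding adhesion molecule best known from vessels, lies on chromosome 9 (GRCm38 chr9:44134469-44142727, plus strand). It is the transgene of the iMcam line, and the study selected it for that line as a dox-responsive gene from RNA-seq of this design, so its direction at 24 h is not independent evidence. Because Mcam was higher with dox in lines that carry another transgene, its promoter is shown, from RefSeq (GRCm38.p6 chr9:44134408-44134707, plus strand), in lower case with CANNTG letters in capitals:
Mcam promoter: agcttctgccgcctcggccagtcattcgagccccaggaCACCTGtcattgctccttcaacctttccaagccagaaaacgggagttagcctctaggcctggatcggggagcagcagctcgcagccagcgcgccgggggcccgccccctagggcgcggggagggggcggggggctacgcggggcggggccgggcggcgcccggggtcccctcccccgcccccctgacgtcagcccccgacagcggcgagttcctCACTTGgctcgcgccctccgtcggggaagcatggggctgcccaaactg
The window of 300 bases holds 2 matches to CANNTG, the E-box letters bound by MyoD1 and related factors, and none to CAGCTG, searched on both strands since both patterns read the same on each. CANNTG was found in 72.3% and CAGCTG in 16.3% of 32851 promoters of that length. Windows of other members held 2 matches to CANNTG for Icam1, 1 for Alcam, 1 or 2 for L1cam by window, and 0 for Cdon and Neo1. None held CAGCTG, and no window was at hand for Ncam1, Vcam1 or Boc. A link between these letters and the response to dox was not tested.

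Without dox, Mcam stood at 8.51, 9.44 and 7.69 CPM at 0 h and 3.03, 2.50 and 2.31 CPM at 24 h. With dox it stood at 24.3, 19.5 and 18.1 CPM at 0 h and 15.5, 17.6 and 17.5 CPM at 24 h. At both times every library with dox lay above every library without it, and Mcam rose at 0 h (log2 fold change 1.29 ± 0.12, adjusted p = 2.64e-06) and at 24 h (log2 fold change 2.72 ± 0.12, adjusted p = 4.26e-09). At 48 h the levels were 13.2, 12.5 and 12.3 CPM without and 24.9, 22.3 and 24.3 CPM with dox (log2 fold change 0.91 ± 0.09, adjusted p = 8.46e-06). In whole cultures at 120 h they were 1.02, 2.50 and 2.02 CPM without and 32.8, 32.2 and 34.4 CPM with dox (log2 fold change 4.14 ± 0.25, adjusted p = 3.3e-06). The groups did not overlap at either time. The dox difference was larger at 24 h than at 0 h by 1.39 on the log2 scale and larger in whole cultures at 120 h than at 48 h by 3.23.

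Over time without dox, the Mcam level fell from 0 h to 24 h (log2 fold change -1.70 ± 0.16, adjusted p = 3.29e-07), rose to 48 h (log2 fold change 2.33 ± 0.14, adjusted p = 4.57e-09) and fell again to 120 h (log2 fold change -2.72 ± 0.26, adjusted p = 2.29e-05). The fall to 120 h is that of the whole cultures, and the 120 h fractions without dox held 2.28 to 7.68 CPM (myoblast-enriched) and 3.07 to 16.6 CPM (myotube-enriched), with 1 library of the latter above the 48 h libraries. With dox the same steps were -0.26 (adjusted p = 0.0333), 0.48 (adjusted p = 3.97e-04) and 0.50 (adjusted p = 4.89e-04) on the log2 scale, and the first of them was lost by leaving out replicate 1 of iMyoD1 0 h with dox or replicates 1 and 3 of iMyoD1 24 h with dox (1 at a time, adjusted p = 0.0512 to 0.2). The antisense gene Gm10687 overlaps Mcam, reached 1.23 CPM and amounted to at most 19.0% of the Mcam count of a library.

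In the 120 h fractions, Mcam stood at 7.68, 2.28 and 4.71 CPM in myoblast-enriched libraries without dox and at 26.4 and 23.2 CPM in the 2 with dox. It rose there (log2 fold change 2.36 ± 0.42, adjusted p = 0.0308) and the call was lost by leaving out replicate 3 of iMyoD1 120 h myoblast-enriched without dox or replicates 2 and 3 of iMyoD1 120 h myoblast-enriched with dox (1 at a time, adjusted p = 0.0893 to 0.188), and in 1 fit of all groups (2.35, adjusted p = 0.177). Here and below, a fit of all groups held only the groups of the deposited table or tables in which the compared groups lie. In myotube-enriched libraries the values were 3.42, 16.6 and 3.07 CPM without and 12.4, 1.27 and 15.03 CPM with dox. These groups overlapped (log2 fold change 0.37 ± 0.92, adjusted p = 0.998), and the difference between the fractions in the response to dox did not pass the test (log2 fold change 2.01 ± 1.23, adjusted p = 1).

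In the iMcam line Mcam stood at 19.5, 17.02 and 17.1 CPM without dox and 69.1, 70.3 and 74.5 CPM with dox (log2 fold change 2.02 ± 0.10, adjusted p = 1.24e-04). In the iCdh23 line, which carries no Mcam transgene, it stood at 7.55, 6.41 and 4.70 CPM without and 54.5, 45.95 and 45.7 CPM with dox (log2 fold change 2.97 ± 0.18, adjusted p = 1.26e-05). The 2 lines therefore overlapped neither with nor without dox, and the log2 response in the iMcam line minus that in the iCdh23 line was -0.97 (adjusted p = 0.0102). Between the lines, Mcam was higher in iMcam than in iCdh23 cells without dox (log2 fold change 1.53 ± 0.19, adjusted p = 0.0321) and with dox (log2 fold change 0.57 ± 0.09, adjusted p = 0.00138). Both calls were lost in 1 fit of all groups (1.53, adjusted p = 0.683 and 0.55, adjusted p = 0.687). The first was also lost by leaving out replicates 1 and 2 of iCdh23 48 h without dox or replicates 1, 2 and 3 of iMcam 48 h without dox (1 at a time, adjusted p = 0.0512 to 0.224). Transgene RNA and RNA of the endogenous gene cannot be told apart in a sum per gene. Cdh23 also rose in the iMcam line, from 5.53, 8.81 and 8.58 CPM to 44.1, 57.3 and 52.2 CPM (log2 fold change 2.76 ± 0.19, adjusted p = 1.50e-04).

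**Figure D2:**
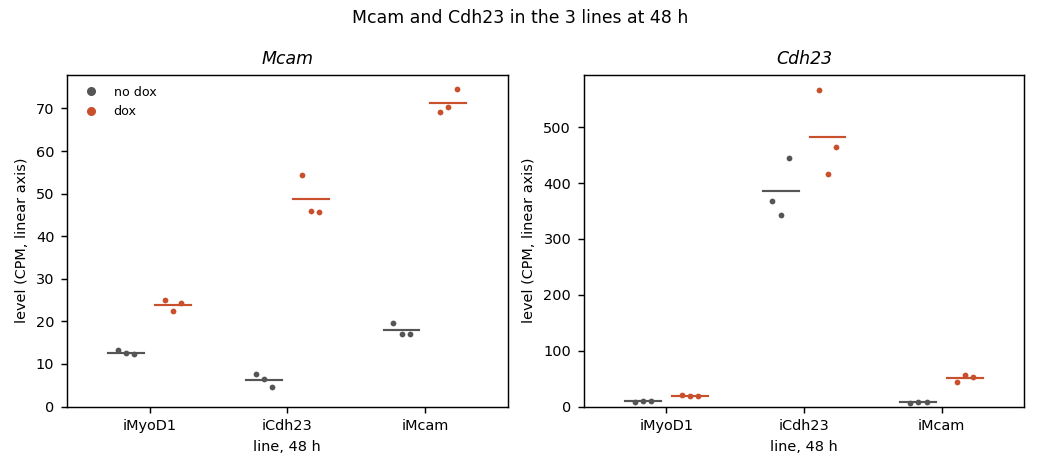
Levels of Mcam and Cdh23 in CPM (linear axes from 0) in the iMyoD1, iCdh23 and iMcam lines at 48 h, for every library (points) and the group mean (line), with dox in orange and without in grey. Mcam was higher with dox in all 3 lines, while Cdh23 in the iCdh23 line was already high without dox.

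Ncam1, the neural cell adhesion molecule that also marks differentiating myoblasts and denervated fibres, lies on the minus strand of chromosome 9 (GRCm38 chr9:49502136-49798925). Without dox its level was 109, 107 and 105 CPM at 0 h, 121, 140.0 and 116 CPM at 24 h, 486, 511 and 474 CPM at 48 h and 984, 886 and 876 CPM in whole cultures at 120 h. It rose at every step, by 0.25 (adjusted p = 0.0058), 2.01 (adjusted p = 3.29e-11) and 0.94 (adjusted p = 1.4e-05) on the log2 scale. The last step rests on the whole cultures, since the 120 h fractions without dox, at 363 to 443 CPM (myoblast-enriched) and 368 to 733 CPM (myotube-enriched), lay below every whole culture and below or around the 48 h libraries. With dox the whole-culture levels at 48 h were 309, 280.5 and 289.9 CPM and at 120 h 425, 440.2 and 455 CPM, below every whole culture without dox at the same time. The dox difference was 0.03 (adjusted p = 0.736) at 0 h, where the groups overlapped, -0.54 (adjusted p = 2.95e-05) at 24 h, -0.75 (adjusted p = 5.42e-06) at 48 h and -1.07 (adjusted p = 1.36e-05) at 120 h. It was more negative at 24 h than at 0 h by -0.62. The summed level of the 8 myotube markers was lower with dox as well, at 4972 to 5126 against 12301 to 13489.5 CPM at 48 h and 6122 to 7768 against 8093 to 12423 CPM at 120 h. The 4 markers of proliferating cells stood at 247 to 266 CPM with and 858 to 874 CPM without dox at 48 h, and at 352 to 419.8 and 181 to 213 CPM at 120 h. The 5 pericyte markers stood at 227 to 263 CPM with and 499 to 531 CPM without dox at 48 h, and at 185 to 222 and 403 to 580.2 CPM at 120 h. Only 2 of the 5 had a mean above 1 CPM at 48 h, and Pdgfrb was the most abundant over all libraries. The part of these marker sums in the result was not tested. In the fractions the Ncam1 difference with dox did not pass the test, at -0.39 (adjusted p = 0.183) in the myoblast-enriched and -0.15 (adjusted p = 0.998) in the myotube-enriched fraction. With the replicate number as a block Ncam1 was called lower in the myoblast-enriched fraction (-0.45, adjusted p = 0.022).

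In the iCdh23 line Ncam1 went from 313, 339 and 496 CPM without dox to 76.3, 68.7 and 76.2 CPM with dox (log2 fold change -2.38 ± 0.19, adjusted p = 3.67e-05). In the iMcam line it went from 319, 407 and 535 CPM to 129, 140.1 and 221 CPM (log2 fold change -1.34 ± 0.25, adjusted p = 0.00395). Neither pair of groups overlapped. With dox Ncam1 was higher in iMcam than in iCdh23 cells (log2 fold change 1.16 ± 0.18, adjusted p = 0.0013). The difference between the 2 responses missed the threshold (log2 fold change 1.02 ± 0.34, adjusted p = 0.0825) and passed it in DESeq2 (1.00, adjusted p = 0.0311) and without the filter on low counts (1.02, adjusted p = 0.0416). The summed level of 8 myotube markers moved with it: 4848 to 7896 CPM without and 32.9 to 116 CPM with dox in iCdh23 cells, and 3565 to 8655 CPM against 461 to 1404 CPM in iMcam cells. The summed level of 4 markers of proliferating cells was 548 to 838 CPM without and 10.99 to 24.2 CPM with dox in iCdh23 cells and 527 to 656 CPM without and 47.2 to 98.3 CPM with dox in iMcam cells. That of the 5 pericyte markers was 363 to 429 CPM without and 69.3 to 99.4 CPM with dox in iCdh23 cells and 599.7 to 811 CPM without and 233 to 249.8 CPM with dox in iMcam cells. In these groups too, only 2 of the 5 had a mean above 1 CPM. The part of these shifts of marker sums in the result was not tested.

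Ncam1 counts lay mainly on 2 transcripts that share their first 2104 coding bases and then part. Ncam1-204 has 2544 coding bases and Ncam1-201 2175, ending early as the form with a lipid anchor in place of the membrane-spanning part is known to do. The place where they part is shown because the share of the short form lay apart between whole cultures of later times and, at 48 h, between libraries with and without dox. The last 30 shared bases are in lower case and the first 30 that differ in capitals, from the GENCODE vM21 transcripts (GRCm38):
Ncam1-204: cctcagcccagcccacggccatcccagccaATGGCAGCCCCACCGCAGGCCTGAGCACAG
Ncam1-201: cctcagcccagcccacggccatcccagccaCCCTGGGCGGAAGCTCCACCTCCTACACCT
Ncam1-201 held 10.8%, 7.82% and 6.17% of the Ncam1 counts at 24 h without dox, 39.8%, 38.2% and 34.98% at 48 h and 57.1%, 54.8% and 48.95% in whole cultures at 120 h. No whole culture at 120 h overlapped the 48 h libraries, while the myoblast-enriched libraries without dox, at 35.7% to 41.6%, did. With dox the share at 48 h was 24.98%, 20.2% and 16.4%, lower than in every library without dox. In the iCdh23 line it was 35.5%, 43.97% and 50.7% without and 5.31%, 4.45% and 13.7% with dox, and in the iMcam line 33.3%, 43.4% and 43.8% without and 18.1%, 19.2% and 30.7% with dox. Each of these 3 dox pairs was fully separated, at p = 0.1 in an exact two-sided permutation test, the smallest that 3 against 3 libraries can give. Counts weigh a transcript by its length, and per length the mean share of Ncam1-201 at 48 h was 55.2% without and 35.1% with dox, against 28.8% and 50.04% for Ncam1-204. At 120 h the shares with dox, 40.3%, 45.2% and 51.1%, overlapped those without, as they did at 24 h and in both fractions. At 0 h the short form held 16.9%, 10.1% and 9.83% without and 8.82%, 9.29% and 9.73% with dox, which did not overlap. In the fractions without dox the share was 49.8%, 56.4% and 58.6% in myotube-enriched and 41.6%, 35.7% and 39.7% in myoblast-enriched libraries, also separated.

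**Figure D3:**
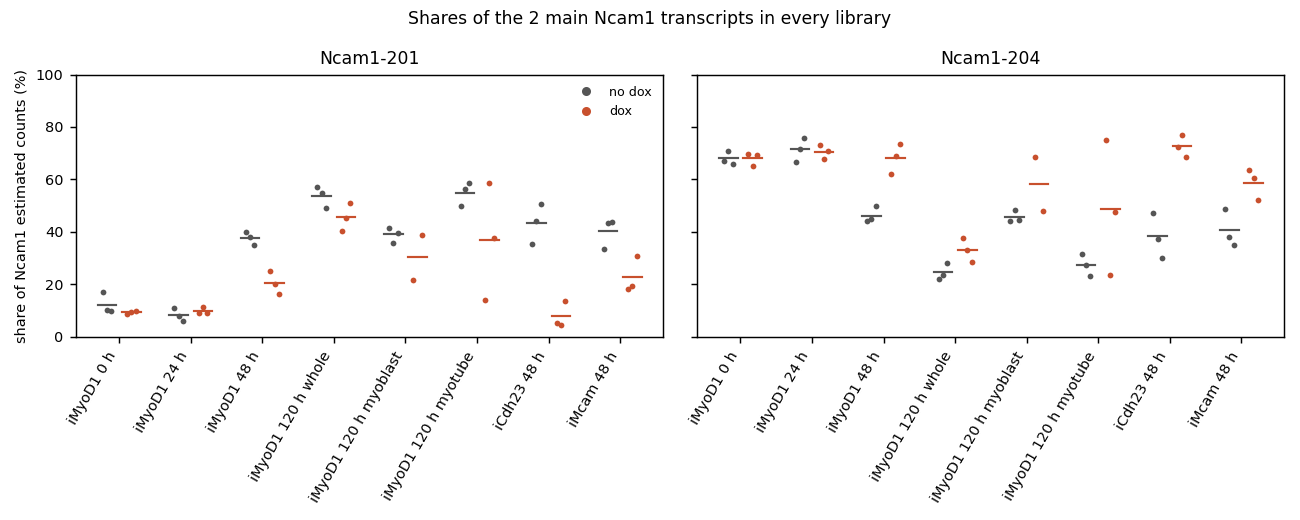
Share of the Ncam1 estimated counts on Ncam1-201 (short) and Ncam1-204 (long), in percent, in every library (points) with the group mean (line), with dox in orange and without in grey. At 48 h the short transcript held a larger share without dox than with it in all 3 lines.

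Mcam also has 2 coding ends, shown in the same way because the share on the shorter one was higher with dox at 48 h in iMyoD1 cells: Mcam-201 with 1944 coding bases and the shorter Mcam-202 with 1818, which part after 1799 bases, near the end that encodes the cytoplasmic tail.
Mcam-201: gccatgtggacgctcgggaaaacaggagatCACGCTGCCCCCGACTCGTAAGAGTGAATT
Mcam-202: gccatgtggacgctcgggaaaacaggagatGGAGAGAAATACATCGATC
At 48 h in the iMyoD1 line Mcam-202 held 36.7%, 22.1% and 33.3% of the Mcam counts without dox and 47.7%, 43.1% and 45.97% with dox, fully separated at the smallest exact p of 0.1. In both 120 h fractions the share was also separated and higher with dox (exact p = 0.2 in the myoblast-enriched and 0.1 in the myotube-enriched fraction). The groups with and without dox overlapped at 0 h (exact p = 0.9), 24 h (0.4) and 120 h in whole cultures (0.9, where the mean was lower with dox), and in the iCdh23 (0.5) and iMcam (0.6) lines. With dox the share was 42.3%, 47.03% and 42.6% in the iCdh23 line and 23.3%, 26.1% and 26.7% in the iMcam line, which did not overlap. Where Mcam was low the shares scattered widely, for example 0%, 45.8% and 0% at 24 h without dox.

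Vcam1, a ligand of integrin alpha4 that is induced by inflammatory signals and present on myoblasts, lies on the minus strand of chromosome 3 (GRCm38 chr3:116109949-116129688). Without dox it stood at 102, 90.5 and 91.98 CPM at 0 h, 41.3, 40.7 and 44.1 CPM at 24 h and 151, 151 and 155 CPM at 48 h. It fell to 24 h (-1.16, adjusted p = 1.56e-09), rose to 48 h (1.91, adjusted p = 3.31e-12) and fell to 120 h (-0.54, adjusted p = 8.45e-04), and moved the same way with dox (-1.70, 2.77 and -0.53). The fall to 120 h is that of the whole cultures, at 90.6 to 110 CPM without dox. The 120 h fractions without dox held 283 to 294 CPM (myoblast-enriched), above every 48 h library, and 116 to 218 CPM (myotube-enriched), around them. With dox Vcam1 fell at 0 h (-0.20, adjusted p = 0.019) and 24 h (-0.75, adjusted p = 2.89e-07), more at 24 h than at 0 h by -0.59, and the 0 h call was lost by leaving out replicate 1 of iMyoD1 0 h without dox (adjusted p = 0.127). The differences at 48 h (0.16, adjusted p = 0.0531) and in whole cultures at 120 h (0.17, adjusted p = 0.26) did not pass the test. At 48 h the libraries with dox, at 173, 179.6 and 158 CPM, lay above those without, and the difference passed without replicate 1 (0.15, adjusted p = 0.0406) or replicate 3 with dox (0.21, adjusted p = 0.012).

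In myoblast-enriched libraries Vcam1 reached 294, 292 and 283 CPM without dox, the highest mean of the 16 groups, and stood at 151 and 173 CPM with dox (log2 fold change -0.83 ± 0.14, adjusted p = 0.0238). That call was lost by leaving out replicate 3 of iMyoD1 120 h myoblast-enriched without dox or replicates 2 and 3 of iMyoD1 120 h myoblast-enriched with dox (1 at a time, adjusted p = 0.0915 to 0.245), and in 1 fit of all groups (-0.84, adjusted p = 0.226). The myotube-enriched libraries without dox, at 218, 116 and 143 CPM, all lay below the myoblast-enriched ones, but the difference did not pass the test (log2 fold change -0.85 ± 0.24, adjusted p = 0.149) and did in DESeq2 (-0.84, adjusted p = 0.0258) and without replicate 1 of the myotube-enriched libraries (-1.17, adjusted p = 0.0332). In the iCdh23 line Vcam1 fell from 257, 292 and 251 CPM to 62.02, 48.7 and 67.96 CPM (log2 fold change -2.17 ± 0.14, adjusted p = 1.74e-05). In the iMcam line it fell from 199, 191 and 139 CPM to 110.3, 105 and 119 CPM (log2 fold change -0.65 ± 0.14, adjusted p = 0.00822), which missed the threshold in 1 fit of all groups (-0.67, adjusted p = 0.0503). The response differed between the 2 lines by 1.501 (adjusted p = 0.00125). Without dox Vcam1 did not pass the test between them (log2 fold change -0.58 ± 0.16, adjusted p = 0.249), although the groups did not overlap and it passed in DESeq2 (-0.58, adjusted p = 0.0444) and with the replicate number as a block (-0.60, adjusted p = 0.0361).

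Icam1, a ligand of leukocyte integrins, was at or near the floor. Its count was between 0 and 18 per library, 32 of the 47 libraries held at most 3 counts, and 8 groups held no library above 3. A count of 3 corresponds to a level of 0.0598 to 0.200 CPM in these libraries. It was tested in none of the comparisons, and no fold change is given.

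Alcam, which binds itself and CD6, lies on the minus strand of chromosome 16 (GRCm38 chr16:52248996-52454074). Its RefSeq promoter (GRCm38.p6 chr16:52453032-52453331, minus strand) is shown because Alcam moved against Mcam with dox. CANNTG letters, of which it holds 1, are in capitals, and it holds no CAGCTG:
Alcam promoter: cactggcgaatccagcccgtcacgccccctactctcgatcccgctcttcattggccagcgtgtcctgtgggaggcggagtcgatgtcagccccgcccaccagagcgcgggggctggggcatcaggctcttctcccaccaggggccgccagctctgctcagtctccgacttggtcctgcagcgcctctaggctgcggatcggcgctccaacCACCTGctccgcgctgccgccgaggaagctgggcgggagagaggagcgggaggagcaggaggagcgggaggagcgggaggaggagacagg
Alcam was highest in growth medium, at 192, 197 and 208 CPM without dox against 112, 121 and 114 CPM with dox (log2 fold change -0.78 ± 0.06, adjusted p = 2.1e-07). It fell to 35.4, 31.4 and 33.5 CPM at 24 h without dox (log2 fold change -2.56 ± 0.06, adjusted p = 6.88e-13) and to 24.2, 24.6 and 22.6 CPM with dox (log2 fold change -2.25 ± 0.06, adjusted p = 3.72e-12). No 24 h library reached any 0 h library. With dox Alcam fell at 24 h (-0.46, adjusted p = 6.42e-05), 48 h (-0.32, adjusted p = 0.0147) and in whole cultures at 120 h (-1.04, adjusted p = 0.00241), and in the iCdh23 (-1.24, adjusted p = 5.92e-05) and iMcam (-0.65, adjusted p = 0.0113) lines. It passed the test neither in the myoblast-enriched (-0.69, adjusted p = 0.265) nor in the myotube-enriched fraction (0.13, adjusted p = 0.998), and in the first it was called lower without the filter on low counts (-0.70, adjusted p = 0.0263). The 48 h call was lost by leaving out replicates 2 and 3 of iMyoD1 48 h without dox (1 at a time, adjusted p = 0.0556 to 0.0716). In 1 fit of all groups the calls at 48 h (-0.32, adjusted p = 0.106) and in the iMcam line (-0.67, adjusted p = 0.118) were lost.

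L1cam, a neural adhesion molecule on the X chromosome (GRCm38 chrX:73853778-73896105, minus strand), lay at or under 0.520 CPM in every iMyoD1 library of 48 h and 120 h and at or above 1.73 CPM in all other libraries. In iMyoD1 cells without dox it stood at 3.47, 3.67 and 3.00 CPM at 0 h and 2.74, 2.54 and 1.73 CPM at 24 h, and rose with dox to 7.14, 5.32 and 5.99 CPM (0.88, adjusted p = 0.00177) and 4.15, 4.67 and 4.32 CPM (0.93, adjusted p = 6.19e-04). At 48 h its counts in iMyoD1 libraries without dox were 2, 2 and 4. In another deposited table, uninduced iCdh23 cells stood at 6.49, 5.69 and 11.02 CPM and uninduced iMcam cells at 7.53, 6.41 and 7.85 CPM. Between these 48 h libraries the line and the deposited table cannot be told apart. The level in uninduced iMcam cells was 52.9 times that in uninduced iMyoD1 cells (95% counting interval 26.6 to 123.0, from 376 and 8 counts), and that in iCdh23 cells 56.5 times (28.5 to 132.0). These intervals cover counting error only. The iMyoD1 fractions of 120 h lie in the same deposited table as the iCdh23 and iMcam lines, and their L1cam level was also low, at 0.0700 to 0.520 CPM over the 11 libraries.

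With dox L1cam fell in the iMcam line to 5.69, 4.95 and 4.86 CPM (log2 fold change -0.47 ± 0.16, adjusted p = 0.0389), while the iCdh23 libraries with dox held 10.8, 11.1 and 15.2 CPM and overlapped those without (log2 fold change 0.67 ± 0.27, adjusted p = 0.0628). The iCdh23 difference passed the test in DESeq2 (0.66, adjusted p = 0.0374), without the filter on low counts (0.67, adjusted p = 0.0465) and without replicate 3 of iCdh23 48 h without dox (1.01, adjusted p = 0.0016). The 2 responses differed by -1.16 (adjusted p = 0.0466). The fall in the iMcam line was lost without the filter (-0.47, adjusted p = 0.0708), in 1 fit of all groups (-0.49, adjusted p = 0.332) and by leaving out replicates 1 and 3 of iMcam 48 h without dox or replicates 1, 2 and 3 of iMcam 48 h with dox (1 at a time, adjusted p = 0.0534 to 0.127), and the difference between lines by leaving out replicates 1 and 2 of iCdh23 48 h without dox or replicates 1, 2 and 3 of iCdh23 48 h with dox or replicates 1, 2 and 3 of iMcam 48 h without dox or replicates 1, 2 and 3 of iMcam 48 h with dox (1 at a time, adjusted p = 0.0592 to 0.114). From 24 h to 48 h in iMyoD1 cells the log2 change was -3.98 (adjusted p = 8.1e-07) without and -4.22 (adjusted p = 1.04e-07) with dox, a step that also crosses the 2 tables. L1cam overlaps Arhgap4 on the same strand, which reached 1.39 CPM, so part of its low counts at 48 h and 120 h is uncertain.

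Cdon and Boc form coreceptors that act at contacts between myoblasts, and both bind cadherins. Cdon (GRCm38 chr9:35421128-35507652, plus strand) stood without dox at 157, 169.9 and 145 CPM at 0 h, 102, 90.03 and 86.2 CPM at 24 h, 328, 351 and 326 CPM at 48 h and 704, 699 and 721 CPM at 120 h. It fell to 24 h (-0.75, adjusted p = 7.52e-07) and rose to 48 h (1.91, adjusted p = 4.05e-11) and to 120 h (1.12, adjusted p = 3.8e-06). The last step rests on the whole cultures, since the 120 h fractions without dox held 356 to 376 CPM (myoblast-enriched) and 304 to 435 CPM (myotube-enriched). At 48 h the dox libraries, at 274, 224 and 205 CPM, lay below all those without dox (log2 fold change -0.52 ± 0.10, adjusted p = 9.86e-04). Cdon also fell with dox at 24 h (-0.28, adjusted p = 0.0031), in whole cultures at 120 h (-0.32, adjusted p = 0.0061) and in the iCdh23 line (-0.92, adjusted p = 0.00494). In the iMcam line it missed the threshold (-0.39, adjusted p = 0.0985) and passed it with the replicate number as a block (-0.40, adjusted p = 0.00802). With that block the call in whole cultures at 120 h was lost (-0.32, adjusted p = 0.0523).

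Boc (GRCm38 chr16:44485049-44558897, minus strand) moved against Cdon with dox at 48 h and 120 h. At 48 h it stood at 9.97, 8.36 and 9.07 CPM without and 15.3, 13.99 and 13.2 CPM with dox (log2 fold change 0.63 ± 0.11, adjusted p = 4.70e-04). It rose with dox at 0 h (0.52, adjusted p = 0.0248) and in whole cultures at 120 h (0.53, adjusted p = 0.0188) and fell at 24 h (-0.36, adjusted p = 0.03), a difference between 24 h and 0 h of -0.92 (adjusted p = 0.00262). Neither the iCdh23 line (-0.41, adjusted p = 0.188) nor the iMcam line (0.27, adjusted p = 0.132) passed the test. The 0 h call was lost by leaving out replicate 2 of iMyoD1 0 h with dox or replicates 2 and 3 of iMyoD1 0 h without dox (1 at a time, adjusted p = 0.0648 to 0.106). The 24 h call was lost by leaving out replicates 1 and 3 of iMyoD1 24 h with dox or replicates 1 and 2 of iMyoD1 24 h without dox (1 at a time, adjusted p = 0.0757 to 0.125), and the 120 h call by leaving out replicate 2 of iMyoD1 120 h without dox or replicates 1 and 3 of iMyoD1 120 h with dox (1 at a time, adjusted p = 0.0589 to 0.0626).

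Neo1 (GRCm38 chr9:58874687-59036441, minus strand) varied least. It stood at 64.7, 64.6 and 61.8 CPM without and 90.3, 77.7 and 70.1 CPM with dox at 48 h (log2 fold change 0.32 ± 0.09, adjusted p = 0.0114), and at 127, 135 and 141 CPM and 171, 163 and 165 CPM in whole cultures at 120 h (log2 fold change 0.30 ± 0.08, adjusted p = 0.0134). The iCdh23 line went from 77.5, 75.4 and 88.98 CPM to 163, 145 and 153 CPM (log2 fold change 0.92 ± 0.10, adjusted p = 1.74e-04) and the iMcam line from 82.5, 83.4 and 77.7 CPM to 135, 144 and 140.1 CPM (log2 fold change 0.80 ± 0.08, adjusted p = 3.37e-04). In the 120 h fractions the difference with dox passed the test in neither for Cdon (-0.50 and -0.22), Boc (0.48 and -0.20) or Neo1 (0.28 and 0.05), given as myoblast-enriched and myotube-enriched log2 fold changes. In the myoblast-enriched fraction Cdon was called lower in DESeq2 (-0.50, adjusted p = 0.00661) and with the replicate number as a block (-0.48, adjusted p = 0.0181). Boc was called higher there with that block (0.55, adjusted p = 0.0318). Together with Mcam, Neo1 was called higher with dox in the iMyoD1 whole cultures of all 4 times and in both other lines. For Neo1 the 24 h call (0.16, adjusted p = 0.0422) was lost by leaving out replicates 1, 2 and 3 of iMyoD1 24 h with dox or replicates 2 and 3 of iMyoD1 24 h without dox (1 at a time, adjusted p = 0.0522 to 0.132), and in 1 fit of all groups (0.11, adjusted p = 0.1). The 48 h call was lost by leaving out replicate 3 of iMyoD1 48 h without dox (adjusted p = 0.053) and the 120 h call by leaving out replicate 2 of iMyoD1 120 h without dox or replicates 1 and 3 of iMyoD1 120 h with dox (1 at a time, adjusted p = 0.0524 to 0.0542).

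**Figure D4:**
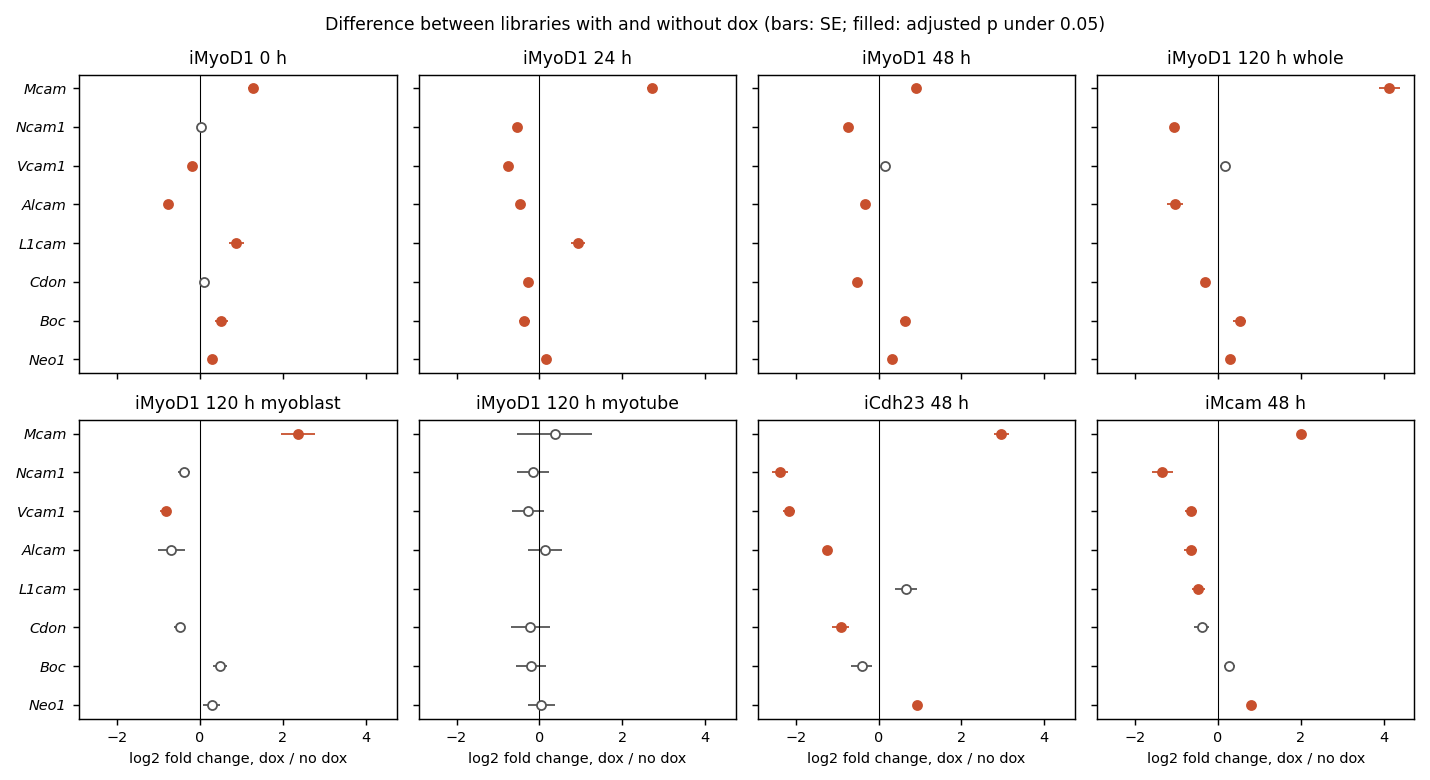
Log2 fold change of 8 members with dox against no dox (x axis; bars are the standard error) in the 8 settings, filled where the adjusted p was under 0.05; Icam1 was too low to test, and L1cam was tested in 4 settings. Mcam lay to the right of 0 in every panel, and Alcam was called lower in 6 of them.

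Set against all genes, the counts of called members were as follows. At 0 h, 4 of 8 tested members rose with dox against 19.1% of all tested genes, and 2 fell against 18.7%. At 24 h, 3 rose (31.1% of all genes) and 5 fell (31.7%). At 48 h, 3 of 7 rose (27.9%) and 3 fell (28.7%), and in whole cultures at 120 h 3 of 7 rose (21.4%) and 3 fell (23.7%). In the iCdh23 line 2 of 8 rose (31.3%) and 4 fell (32.4%), and in the iMcam line 2 of 8 rose (24.2%) and 4 fell (24.8%). These shares are a background for the members and no result about them as a set. In the myoblast-enriched fraction 1 of 7 rose (1.82%) and 1 fell (2.52%).

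In the myotube-enriched fraction none of 7 was called, as for all 14113 genes tested (0.0% up and 0.0% down), while 79 genes had an unadjusted p under 0.05 and DESeq2 called 1. Between the fractions no member was called without dox, where 0.578% of genes were higher and 0.0143% lower in the myotube-enriched libraries. With dox none of 14291 genes was called (0.0% up, 0.0% down; 182 at an unadjusted p under 0.05 and 0 by DESeq2). The summed myotube markers stood at 11661 to 20003 CPM in myotube-enriched and 5715 to 8831 CPM in myoblast-enriched libraries without dox. With dox they stood at 4838 to 17906 CPM and 4617 to 4931 CPM, which overlapped.

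Over time without dox, 3 of 8 members rose from 0 h to 24 h (37.3% of all genes) and 5 fell (37.0%), 4 rose from 24 h to 48 h (38.4%) and 3 fell (38.4%), and 3 of 7 rose from 48 h to 120 h (33.0%) and 2 fell (34.1%). With dox none rose from 0 h to 24 h (34.0%) and 6 of 8 fell (34.0%), 5 rose to 48 h (36.9%) and 3 fell (35.5%), and 4 of 7 rose to 120 h (34.9%) and 2 fell (38.6%). Between the uninduced iMcam and iCdh23 lines 1 of 8 was higher in iMcam (0.226% of all genes) and none lower (0.182%), and between the induced lines 4 were higher (19.2%) and 1 lower (16.3%). Uninduced iMcam against uninduced iMyoD1 cells, which lie in different deposited tables, gave 4 of 8 higher (24.8%) and none lower (25.0%). The dox response differed for 6 of 8 members between 24 h and 0 h (34.1% of all genes), for 3 of 7 between 120 h and 48 h (34.1%) and for 3 of 8 between the iMcam and iCdh23 lines (10.6%). It differed for none between the fractions (0.0% of 15008 genes, with 217 at an unadjusted p under 0.05 and 2 by DESeq2).

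Among partners of the first 6 members, St8sia2, which adds polysialic acid to Ncam1, fell with dox where Ncam1 did at 48 h. It fell with dox at 48 h (log2 fold change -2.66), in the iCdh23 line (-6.07) and in the iMcam line (-3.51), and rose from 24 h to 48 h without dox (7.60). Its mean level in the iCdh23 line went from 38.4 to 0.568 CPM, and at 24 h without dox it was 0.194 CPM. Itga4, the integrin subunit that binds Vcam1, fell in the iMcam line (-2.96), and Lama4, a laminin chain bound by Mcam, fell in the iCdh23 line (-3.97). Others of the list rose with dox. The Gfra1 mean went from 39.9 to 115 CPM at 48 h (1.52) and from 18.8 to 125 CPM in whole cultures at 120 h (2.73). Itgal rose at 48 h (1.61) and in the iMcam line (1.68), at means under 1 CPM. Of this list 4 of 17 tested genes rose (27.9% of all genes) and 9 fell (28.7%) with dox at 48 h. In the iCdh23 line 3 of 19 rose (31.3% of all genes) and 12 fell (32.4%). In the iMcam line 4 of 17 rose (24.2% of all genes) and 6 fell (24.8%). Their median log2 fold changes were -0.29, -0.80 and -0.06, against 0.01, -0.0025 and 0.02 over all genes.

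Among ligands and effectors of Cdon, Boc and Neo1, the hedgehog ligand Dhh rose with dox at 0 h (1.62), 24 h (2.95), 48 h (1.78) and 120 h in whole cultures (3.85), and in the iCdh23 (3.59) and iMcam (2.55) lines. Its mean level in whole cultures at 120 h went from 0.108 to 1.65 CPM. Netrin 4 (Ntn4) fell in the iCdh23 (-4.14) and iMcam (-1.91) lines, and Cdh2, a cadherin bound by Cdon, fell at 48 h (-0.80) and in the iCdh23 line (-2.75). Of this list 10 of 22 tested genes rose (31.1% of all genes) and 6 fell (31.7%) at 24 h. At 48 h 6 of 21 rose (27.9% of all genes) and 6 fell (28.7%). With dox in the iCdh23 line 7 of 21 rose (31.3%) and 10 fell (32.4%). With dox in the iMcam line 7 of 21 rose (24.2%) and 4 fell (24.8%).

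Of the other immunoglobulin-type adhesion genes, Icam5 rose with dox at 24 h (2.33), 48 h (2.57), 120 h in whole cultures (2.44), in the myoblast-enriched fraction (1.76) and in the iMcam line (2.67), while Lrrn1 fell at 48 h in the iMyoD1 (-1.62), iCdh23 (-5.03) and iMcam (-2.42) lines. The Lrrn1 mean in the iCdh23 line went from 4.05 to 0.116 CPM. The Icam5 means were low as well, at 0.390 without and 1.95 CPM with dox at 24 h. In whole cultures at 120 h they were 0.123 and 0.704 CPM (adjusted p = 0.0361). The Icam5 call in the myoblast-enriched fraction (adjusted p = 0.0433) rests on 2 libraries with dox. Of this list 8 of 14 tested genes rose (19.1% of all genes) and 1 fell (18.7%) with dox at 0 h. At 24 h 7 of 16 rose (31.1% of all genes) and 5 fell (31.7%). At 48 h 6 of 15 rose (27.9% of all genes) and 3 fell (28.7%). At 120 h in whole cultures 4 of 16 rose (21.4% of all genes) and 2 fell (23.7%). Of genes that NF-kB is known to induce, as it does Vcam1 and Icam1, Cxcl5 fell at 0 h (-1.56) and 24 h (-2.15), in the myoblast-enriched fraction (-0.95) and in the iCdh23 line (-3.16), and rose at 48 h in iMyoD1 cells (1.61). Its list went both ways with dox, where 1 of 12 tested genes rose (19.1% of all genes) and 4 fell (18.7%) at 0 h. At 24 h 4 of 12 rose (31.1% of all genes) and 5 fell (31.7%). At 48 h 5 of 12 rose (27.9% of all genes) and 3 fell (28.7%). From 0 h to 24 h without dox 1 of 12 rose (37.3% of all genes) and 11 fell (37.0%).

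The genes closest in pattern to each member were named by Pearson's r of mean log2(CPM + 1) over the 16 groups (14 for Mcam, leaving out the iMcam line), which share deposited tables and lines. They were Tead4 (r = 0.99) and Cobl (0.983) for Ncam1, Matn2 (0.963), Mxra7 (0.933) and Ptgfrn (0.93) for Vcam1, and Pacs1 (0.934), Prkag2 (0.928) and Ap3m2 (0.915) for Mcam. For Alcam they were Dlk2 (0.978), Hmx2 (0.928) and Gm2016 (0.926), for Cdon Enah (0.972), Svil (0.964) and Rmdn2 (0.96), and for Neo1 Gigyf2 (0.946), Tmem245 (0.943) and Rsf1 (0.942). For L1cam they were 6530402F18Rik (0.911), Eif2ak3 (0.908) and Rap2a (0.903), and for Boc Pnpla7 (0.90), Sema3c (0.89) and Ghr (0.882). None is named for Icam1, which lay near the floor. These values are descriptions.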

How the data were processed

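PolyA RNA of C2C12 lines was sequenced, and the authors deposited 3 tables of estimated counts per transcript, which need not be whole, made with Salmon on mm10 according to the submitters' processing notes (33.3% of values were not whole). The transcript annotation and the strand setting are not given in the sources used here. The deposited estimated counts of all transcripts of a symbol were added up, and the sums rounded to whole numbers. Of the gene IDs 98.8% were matched to symbols, and 98.7% of transcripts were found in GENCODE vM21 (GRCm38), which gave lengths and coordinates. Samples were grouped by their titles, and no 2 libraries of a group agreed within sampling noise.

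Each of 19 pairs of groups was fitted alone, after a filter on low counts and TMM scaling, with edgeR 4.0.16 (quasi-likelihood test, R 4.3.3) and Benjamini-Hochberg adjustment over all genes tested. The 4 differences of dox responses were interaction terms. Fits were tested on simulated data. Members and gene lists were chosen with earlier results of these data known. Named were the 9 members, up to 3 genes per other list with the largest change among those called in a comparison, the induced genes, and the 3 genes with the highest r, among genes with a group mean of at least 5 CPM. For Ncam1, 1 gene that this rule gives is not reported here. Figures were drawn with matplotlib 3.10.9. Alternatives were RLE scaling, DESeq2 1.42.0, no filter, 1 fit of all groups, a replicate block, and leaving out each library. The fit of all groups held only the groups of the deposited table or tables in which the compared groups lie. Same-numbered libraries deviated together in all 3 pairs for dox in iMcam (correlations 0.294 to 0.456), the fractions without dox (0.178 to 0.481) and the uninduced iMcam and iCdh23 lines (0.122 to 0.523), so the numbers were taken to pair them there. Depth bounds the precision of low genes, since 3 counts are the floor used per library.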

Additional observations from a re-analysis of the deposited data

Results flagged for a closer look

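The members below responded differently to dox in 2 settings, by a test of the difference itself in edgeR's quasi-likelihood fit. Between 24 h and 0 h in iMyoD1 cells the log2 response differed by 1.39 (adjusted p = 2.03e-05) for Mcam, -0.62 (adjusted p = 1.72e-04) for Ncam1, -0.59 (adjusted p = 3.63e-05) for Vcam1, 0.27 (adjusted p = 0.0226) for Alcam, -0.41 (adjusted p = 0.00847) for Cdon and -0.92 (adjusted p = 0.00262) for Boc. The Alcam value was lost by leaving out replicate 3 of iMyoD1 0 h without dox or replicates 1 and 2 of iMyoD1 24 h with dox or replicate 2 of iMyoD1 24 h without dox (1 at a time, adjusted p = 0.0555 to 0.0663). Between whole cultures at 120 h and 48 h it differed by 3.23 (adjusted p = 4.73e-07) for Mcam, -0.32 (adjusted p = 0.033) for Ncam1 and -0.71 (adjusted p = 0.0232) for Alcam. Of these, Ncam1 was lost by leaving out replicates 1 and 3 of iMyoD1 48 h without dox or replicate 1 of iMyoD1 120 h without dox or replicates 1 and 2 of iMyoD1 120 h with dox (1 at a time, adjusted p = 0.0529 to 0.0839), and Alcam by leaving out replicate 1 of iMyoD1 48 h without dox (adjusted p = 0.0624). Between the iMcam and iCdh23 lines it differed by -0.97 (adjusted p = 0.0102) for Mcam, 1.501 (adjusted p = 0.00125) for Vcam1 and -1.16 (adjusted p = 0.0466) for L1cam. The L1cam value lost its call in 11 of the 12 fits that left out 1 library (adjusted p at most 0.114). Groups of 3 or fewer libraries were not tested for outlying samples.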

How the results depend on the processing

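Of 2066 alternative values of members' log2 changes, 1883 kept direction and call, 92 lost the call, 37 gained one and 54 changed sign, none of them a called change. With the replicate block, members that rose with dox in whole cultures at 120 h went from 3 to 1 (Boc and Neo1 lost) and those that fell from 3 to 2 (Cdon lost, adjusted p = 0.0523), in the myoblast-enriched fraction 2 rose and 4 fell against 1 and 1, and between the uninduced iMcam and iCdh23 lines 1 fell against 0; the block moved no other count of members by more than 1.5 times. The block also gave calls to L1cam with dox in the iCdh23 line (adjusted p = 0.00775), to Alcam in the myoblast-enriched fraction (adjusted p = 0.0109) and to the Ncam1 response between the iMcam and iCdh23 lines (adjusted p = 0.00688). The Ncam1 response at 120 h against 48 h lost its call (-0.32, adjusted p = 0.0601). Besides the 3 comparisons named in the methods, same-numbered libraries deviated together for dox in the myoblast-enriched fraction (correlations 0.341 and 0.506). They did so more weakly for dox in the iCdh23 line (0.0742 to 0.209) and between the induced iMcam and iCdh23 lines (0.00649 to 0.350). In the other comparisons the replicate numbers were not shown to pair libraries. The main tests used no pairing. In 1 fit of all groups, 0 members rose and 0 fell in the myoblast-enriched fraction, 1 fell in the iMcam line, 0 were higher in uninduced iMcam than iCdh23 cells and 1 was higher than in uninduced iMyoD1 cells. DESeq2 gave 2 members that fell in the myoblast-enriched fraction, as did no filter, and 1 that was lower in the myotube-enriched than in the myoblast-enriched fraction without dox and 1 in iMcam than iCdh23 cells without dox. Leaving out 1 library at a time gave 1 to 2 members that fell with dox at 0 h, 1 to 3 members that rose at 120 h in whole cultures, 0 to 1 members that rose in the myoblast-enriched fraction, 0 to 1 members that fell there, 0 to 1 members that were lower in the myotube-enriched fraction without dox, 0 to 1 members that were higher in uninduced iMcam than iCdh23 cells, 0 to 2 members that were lower in uninduced iMcam than iMyoD1 cells and 1 to 4 whose dox response differed between 120 h and 48 h. The causes were not tested, except that fewer libraries enter these fits. Log2 changes of members without a call whose sign turned in some of these fits had the following ranges. For dox at 0 h these were Cdon -0.00265 to 0.15, Ncam1 -0.0418 to 0.0976. For dox in the myotube-enriched fraction these were Alcam -0.26 to 0.46, Boc -0.41 to 0.00533, Cdon -0.86 to 0.13, Mcam -0.13 to 1.59, Ncam1 -0.38 to 0.11, Neo1 -0.12 to 0.32, Vcam1 -0.49 to 0.00747. From 0 h to 24 h with dox these were Boc -0.0993 to 0.00701. Between fractions without dox these were Cdon -0.12 to 0.16, Mcam -0.56 to 1.14. Between fractions with dox these were Cdon -0.35 to 0.67, Neo1 -0.0532 to 0.40. Between uninduced iMcam and iCdh23 lines these were Cdon -0.27 to 0.14, L1cam -0.26 to 0.27, Ncam1 -0.0637 to 0.38, Neo1 -0.0308 to 0.10. For the dox response at 24 h against 0 h these were L1cam -0.17 to 0.14. For the dox response at 120 h against 48 h these were Neo1 -0.12 to 0.0784, Vcam1 -0.11 to 0.074. For the dox response of myoblast-enriched against myotube-enriched cells these were Cdon -0.62 to 0.38, L1cam -0.46 to 0.31, Ncam1 -0.48 to 0.018, Neo1 -0.0273 to 0.42. Neo1 in the myotube-enriched fraction turned to -0.0103 with the replicate block, the Vcam1 response at 120 h against 48 h to -0.039 without the filter, and the L1cam response of myoblast-enriched against myotube-enriched cells to -0.00025 with RLE, -0.0083 with DESeq2 and -0.0018 without the filter. Other scaling moved 43 of 288 group levels by over 1 SD, and division by length moved 32 of 64 transcript shares. Depth limits Icam1 and, in iMyoD1 cells at 48 h and 120 h, L1cam.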

Other observations

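Cdon counts lay on 2 transcripts with the same coding length, Cdon-202, which starts at position 35421558 of chromosome 9 (GRCm38), and Cdon-201, which starts downstream at 35452076. Cdon-201 held 75.4%, 76.2% and 80.1% of the counts at 48 h in uninduced iMyoD1 cells and 47.4%, 22.9% and 49.5% in uninduced iMcam cells, which did not overlap (exact two-sided permutation p = 0.1, the smallest for 3 against 3). In uninduced iCdh23 cells the share was 46.8%, 47.8% and 44.1%. In iMyoD1 cells without dox at 0 h and 24 h it was 30.7% to 48.1% and 44.4% to 64.1%, so that the share differed between times of 1 line as well. The iMyoD1 libraries of 48 h lie in another deposited table than those of the other lines. In the table of the other lines, the 120 h fractions of uninduced iMyoD1 cells had shares of 63.2%, 85.3% and 65.5% in the myoblast-enriched libraries, above all of the iMcam and iCdh23 libraries, and 41.6%, 58.00% and 74.6% in the myotube-enriched libraries, which overlapped them.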
